A study of Mus musculus with 10 samples.

Results

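Macrophage and myeloid genes were followed in whole left ventricle of mice with chronic kidney disease (CKD). The 42 genes were taken by their symbols from a table of 23303 gene entries, as genes known to be expressed in macrophages, in other myeloid cells or in leukocytes generally. All 42 were listed and none was at 0 in any library. A gene was tested where its mean over all 10 libraries was at least 0.5 FPKM (a fragment level corrected for transcript length and library size), which kept 41 of the 42 and 12585 genes in all. Gpnmb, with a mean of 0.440 FPKM, fell just below that limit, and Fcgr1, at 0.736 FPKM, lay just above it.

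The 10 mice were males of the 129X1/SvJ inbred strain, and the surgery entry of the labels put 5 of them in the CKD group and 5 in the Sham group. Each library came from 1 mouse, and mice are numbered within a group only to name them. The age of the mice and the operation that produced kidney disease are not given in the sources used here, nor is any genetic change. RNA came from unsorted ventricle, so a level is an average over all cells of the tissue, and more cells of a type cannot be told apart from more RNA per cell.

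Heart tissue holds macrophages that settle before birth and renew themselves, and others that descend from blood monocytes. Both depend on signalling through the receptor Csf1r and on the transcription factor PU.1, which Spi1 encodes. They clear dead cells and debris through scavenger and Fc receptors, many of which signal through small adaptor proteins that carry an activation motif called ITAM, and heart macrophages are known to take up cardiomyocyte waste and to influence fibroblasts and conduction.

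The libraries looked alike in their summed FPKM, which ranged from 570509 to 605007, and no pair was identical. Read depth is not given, but the steps between low values put the relative depth of the libraries between 0.852 and 1.15 times that of Sham 2. CKD 1 and Sham 1 stood apart from the other mice of their groups: the 10 most abundant genes took 14.8% and 15.3% of summed FPKM in them, against 17.6% to 18.2% in the other 8. The summed FPKM of 6 cardiomyocyte markers (Tnnt2, Tnni3, Actn2, Myl2, Ryr2 and Mb) was 42530 in CKD 1 and 44810 in Sham 1, against 56387 to 60541 elsewhere, so the heart muscle label was borne out by abundant muscle genes in every library. The 8 neutrophil markers summed to 60.1 FPKM in CKD 5, to between 14.8 and 20.7 in CKD 1 to CKD 4, and to between 7.89 and 31.0 in Sham mice. Results are therefore also given without CKD 1 and Sham 1, and without CKD 5, where that changed a call.

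The macrophage and myeloid genes were higher in CKD ventricles as a group. Of the 41 tested genes, 24 were higher in CKD and 0 were lower at an adjusted p under 0.05 (limma, Benjamini-Hochberg over all 12585 genes). Among all tested genes, 3.08% were called higher and 1.97% lower, or 5.05% in either direction. All 41 differences were positive, against 49.2% of all tested genes, and 34 of the 41 had an unadjusted p under 0.05, against 2415 of the 12585. The median log2 difference was 0.55, with a range of 0.15 to 0.87, whereas the median over all tested genes was -0.00. In 20 of the 41 every CKD value lay above every Sham value, which held for 4.08% of all tested genes, while 3.01% of all lay wholly below. Fcgr1 reached the limit of 0.5 FPKM only through its CKD values; without it, 23 of 40 genes were higher, 0 were lower, 19 did not overlap and the median was again 0.55. Neither the 41 genes nor the cells that express them are independent of each other. The genes were also chosen with earlier results of these data known. These counts therefore describe the group and were not tested.

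**Figure D1:**
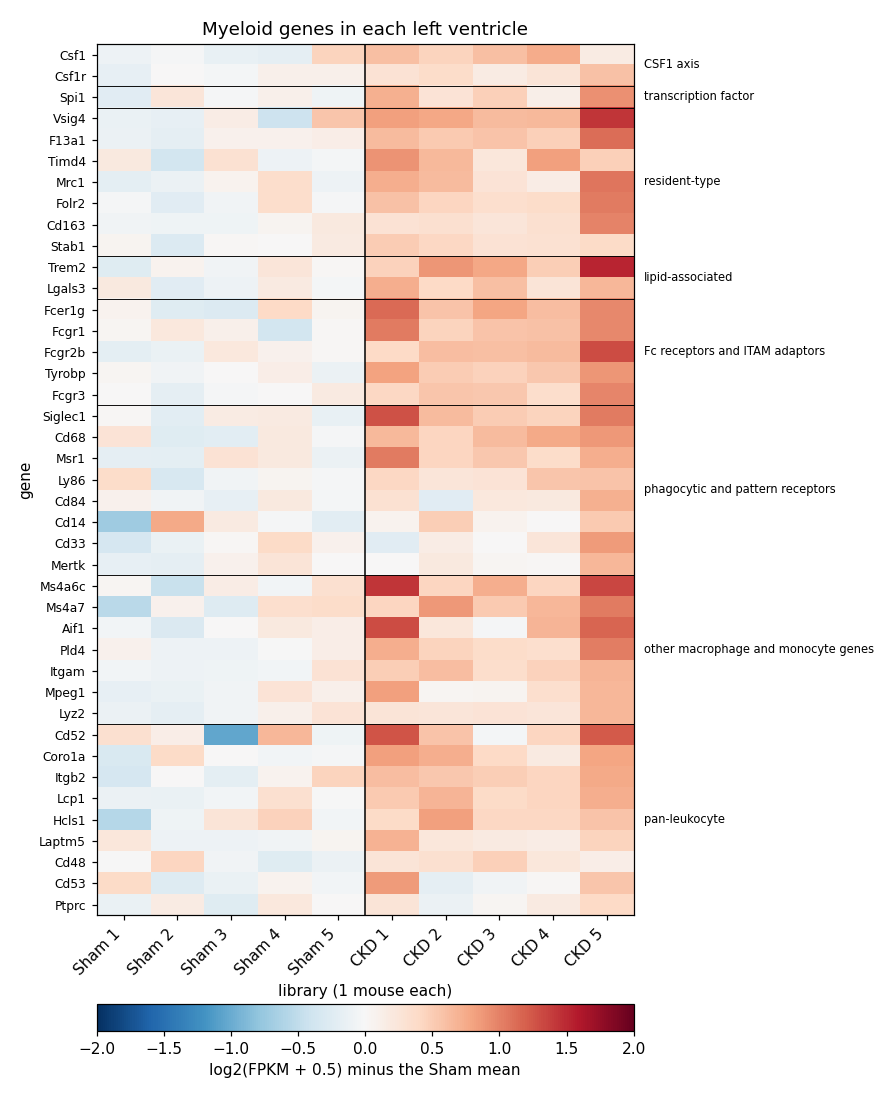
Each row is 1 of the 41 tested genes, ordered by role, and each column 1 of the 10 mice; colour gives the log2(FPKM + 0.5) difference from the mean of the 5 Sham mice. The CKD columns are above 0 for most genes, with CKD 5 and CKD 1 furthest above it, and the Sham columns scatter around 0.

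The rises were modest and were not equal among the CKD mice. FPKM summed over the 42 genes was 535, 490, 479, 478 and 642 in CKD 1 to CKD 5, and 347, 341, 355, 402 and 411 in Sham 1 to Sham 5. The lowest CKD mouse thus exceeded the highest Sham mouse. Lyz2 alone, the most abundant of the genes, made a large share of these sums, so the mean log2 deviation from the Sham mean was also taken over the 41 tested genes. It was 0.63, 0.43, 0.37, 0.39 and 0.82 in CKD 1 to CKD 5 and ranged from -0.07 to 0.11 in the Sham mice. CKD 5 held the highest value of all 10 mice in 23 of the 41 genes and CKD 1 in 14. At the other end, Sham 2 was lowest of all mice in 17 genes and Sham 1 in 12.

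PU.1 binds a purine-rich core that contains the letters GAGGAA, and its targets are known to include many genes of this set, so the RefSeq promoter windows (GRCm38.p6; 250 bases before to 50 after a transcript's start) were searched for that core on both strands. Windows were matched by symbol for 34 of the 42 genes. Of these, 17 (50%) held GAGGAA, against 31.3% of the 27025 genes with a window; the longer form GAGGAAGT, which contains the shorter one, was in 3 of the 34 (8.82%) and in 3.69% of all genes. Of the 17 genes with the core 10 were called higher in CKD, among them Fcgr1, which reached the limit only through its CKD values. Of the 17 without it, which include the untested Gpnmb, 9 were called higher. Over all tested genes, 3.08% were called higher. The motif shares describe letters in a window and not binding. The windows of Itgam, Cd68, Fcgr3 and Fcer1g, all called higher in CKD, are shown as examples with 0 to 2 matches, over the 250 bases before the start, written 5′ to 3′ on the gene's strand. Matches in the 50 bases after the start are not printed. With them, the whole window holds 3 matches for Itgam and 2 for Cd68. Capitals mark GAGGAA or its reverse complement TTCCTC.
Itgam: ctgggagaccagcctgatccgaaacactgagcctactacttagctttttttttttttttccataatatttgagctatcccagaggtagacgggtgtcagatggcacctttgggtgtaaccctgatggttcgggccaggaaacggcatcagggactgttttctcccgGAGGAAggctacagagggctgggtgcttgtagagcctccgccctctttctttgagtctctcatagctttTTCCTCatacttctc
Cd68: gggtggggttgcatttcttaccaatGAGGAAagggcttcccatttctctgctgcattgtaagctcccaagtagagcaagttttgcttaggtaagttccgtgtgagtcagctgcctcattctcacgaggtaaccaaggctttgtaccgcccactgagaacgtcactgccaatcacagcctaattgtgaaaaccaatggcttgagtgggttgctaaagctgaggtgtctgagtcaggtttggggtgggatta
Fcgr3: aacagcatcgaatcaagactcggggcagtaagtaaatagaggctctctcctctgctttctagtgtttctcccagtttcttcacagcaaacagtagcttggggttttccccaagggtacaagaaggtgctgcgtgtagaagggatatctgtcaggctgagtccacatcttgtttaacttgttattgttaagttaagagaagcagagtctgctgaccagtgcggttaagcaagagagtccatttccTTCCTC
Fcer1g: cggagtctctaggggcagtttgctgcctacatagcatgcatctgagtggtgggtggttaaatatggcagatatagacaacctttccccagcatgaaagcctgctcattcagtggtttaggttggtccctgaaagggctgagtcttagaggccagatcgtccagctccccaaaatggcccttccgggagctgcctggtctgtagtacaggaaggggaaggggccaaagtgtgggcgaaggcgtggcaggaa
Itgam lies on the plus strand, with the printed bases at chr7:128062390-128062639 and matches that begin 84 and 15 bases before the start (-84 and -15). The Cd68 stretch is chr11:69666171-69666420 on the minus strand, with a match at -225. For Fcgr3 the printed bases are chr1:171059404-171059653 on the minus strand, and the match at -6 ends next to the start; this is 1 of 2 windows listed for Fcgr3, both at transcript starts inside the gene's annotated span. The Fcer1g stretch, chr1:171234350-171234599 on the minus strand, holds no match.

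The ligand and receptor that macrophages depend on were both higher in CKD. Csf1, the growth factor of macrophages, stood at 26.0, 23.5, 26.1, 28.9 and 19.2 FPKM in CKD 1 to CKD 5 and at 15.8, 16.8, 15.3, 15.0 and 23.4 FPKM in Sham 1 to Sham 5. Sham 5 lay within the CKD range, and CKD 5 was the lowest of the CKD mice, unlike in most other genes of the set. The means were 24.7 ± 3.64 and 17.3 ± 3.51 FPKM (SD, n = 5 mice per group, as throughout), a log2 difference of 0.51 (SE 0.13, adjusted p = 0.0447). Csf1r, its receptor, was at 20.0, 21.0, 18.2, 19.5 and 24.7 FPKM in CKD 1 to CKD 5 and at 14.5, 16.4, 15.7, 17.3 and 17.4 FPKM in Sham 1 to Sham 5. The groups did not overlap for the receptor, and the log2 difference was 0.33 (SE 0.08, adjusted p = 0.0391). Both calls lay close to the threshold: each was lost without any of several single mice of either group, with an adjusted p of up to 0.106 for Csf1 and 0.0935 for Csf1r.

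Spi1, which encodes PU.1, had a log2 difference of 0.50 (SE 0.15) that missed the threshold (adjusted p = 0.0746). Its FPKM was 5.73, 4.12, 4.83, 3.65 and 6.68 in CKD 1 to CKD 5 and 2.77, 4.03, 3.25, 3.59 and 3.10 in Sham 1 to Sham 5. CKD 4 fell inside the Sham range, and without that mouse the adjusted p was 0.0342.

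Of the 7 resident-type genes, which mark tissue macrophages in many organs, 5 were higher in CKD, 0 were lower, and the median log2 difference was 0.57. F13a1, the catalytic subunit of coagulation factor XIII and an abundant product of tissue macrophages, had 27.7, 25.6, 26.5, 24.9 and 38.9 FPKM in CKD 1 to CKD 5 and 16.2, 15.7, 18.9, 18.8 and 19.5 FPKM in Sham 1 to Sham 5. The groups were clearly separated, with CKD 5 far above the other CKD mice. The fold change was 1.58 on the log2(FPKM + 0.5) scale used for all folds here (log2 0.66, SE 0.11, adjusted p = 0.00733), and without CKD 5 it was still called (log2 0.55, adjusted p = 0.00555).

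Vsig4, a complement receptor that captures opsonised particles, had the highest log2 difference of the 7, 0.86 (SE 0.19, adjusted p = 0.0238), or 1.82-fold. It was measured at 4.09, 3.91, 3.53, 3.57 and 6.45 FPKM in CKD 1 to CKD 5 and at 1.85, 1.81, 2.37, 1.44 and 3.31 FPKM in Sham 1 to Sham 5. The lowest CKD mouse stood barely above Sham 5, and the call was lost without CKD 2, Sham 1, Sham 2 or Sham 4, with an adjusted p of up to 0.0579. Leaving out CKD 1 and Sham 1 together gave an adjusted p of 0.0756.

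Stab1, a scavenger receptor shared by tissue macrophages and some endothelium, was higher by a smaller log2 difference (0.38, SE 0.08, adjusted p = 0.0188). Its FPKM was 20.9, 19.6, 17.9, 18.2 and 19.1 in CKD 1 to CKD 5, a narrow range, and 15.2, 12.0, 14.7, 14.6 and 16.5 in Sham 1 to Sham 5. Here CKD 5 was not the highest mouse. The call was lost without CKD 2 alone (adjusted p = 0.0518). Of 5 endothelial markers (Pecam1, Cdh5, Kdr, Tek and Emcn) 0 were called by limma and 0 had an unadjusted p under 0.05, and their median log2 difference was 0.02. The part that endothelium had in the Stab1 values was not tested.

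Folr2, a folate receptor of tissue macrophages, and Timd4, a phosphatidylserine receptor of self-renewing resident macrophages, were also higher. Folr2 was at 18.2, 16.3, 15.2, 15.6 and 25.1 FPKM in the CKD mice and 11.7, 10.2, 11.3, 15.4 and 11.7 FPKM in the Sham mice, a 1.47-fold difference (adjusted p = 0.0414). Timd4, the scarcest of the 7, was at 2.47, 2.01, 1.36, 2.30 and 1.72 FPKM in the CKD mice and 1.32, 0.737, 1.47, 0.983 and 1.05 FPKM in the Sham mice, a 1.53-fold difference (adjusted p = 0.0451). In each gene 1 Sham mouse, Sham 4 for Folr2 and Sham 3 for Timd4, lay above the lowest CKD mouse, and each call was lost without several single mice (adjusted p of up to 0.0939 and 0.104).

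The other two resident-type genes did not pass. Cd163, the haemoglobin scavenger receptor, was at 9.47, 9.74, 9.20, 9.67 and 15.8 FPKM in the CKD mice and 7.32, 7.17, 7.17, 7.99 and 8.83 FPKM in the Sham mice. The groups did not overlap and CKD 5 was far above the rest, and the adjusted p was 0.086 (log2 0.43, SE 0.13), or 0.0614 without CKD 5. Mrc1, the mannose receptor, was at 14.1, 13.3, 10.2, 9.35 and 18.1 FPKM in the CKD mice and 7.20, 7.65, 8.79, 10.8 and 7.74 FPKM in the Sham mice (log2 0.57, SE 0.16, adjusted p = 0.0688). CKD 3 and CKD 4 lay below Sham 4 for this receptor, and without CKD 4 the adjusted p was 0.0329.

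**Figure D2:**
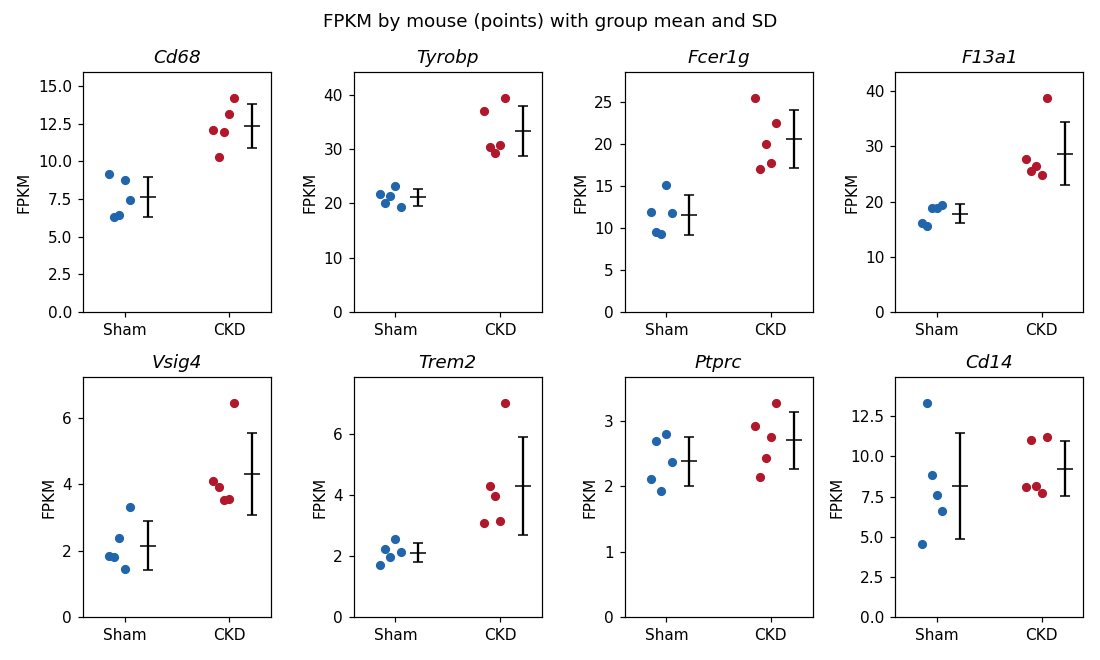
FPKM of 8 genes in each mouse (points), with the group mean and SD (bars), CKD and Sham side by side; each panel has its own linear axis that starts at 0. Cd68, Tyrobp, Fcer1g, F13a1, Vsig4 and Trem2 show no overlap of the groups, whereas Ptprc and Cd14 overlap.

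Lipid-associated genes were set beside the resident-type ones. They mark macrophages that take up lipid and debris in fat, atheroma and injured tissue. Trem2, a lipid-sensing receptor that signals through Tyrobp, had 3.10, 4.32, 3.97, 3.17 and 7.03 FPKM in CKD 1 to CKD 5 and 1.70, 2.23, 1.98, 2.58 and 2.14 FPKM in Sham 1 to Sham 5. It was 1.78-fold higher (log2 0.83, SE 0.18, adjusted p = 0.0231), without overlap, and CKD 5 was again the highest mouse. Without CKD 5 the log2 difference was 0.65 (adjusted p = 0.0205), and it was Sham 1, Sham 3 or CKD 2 whose removal ended the call (adjusted p of up to 0.0604).

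Lgals3, which encodes the lectin galectin-3, was at 3.91, 3.00, 3.56, 2.70 and 3.71 FPKM in the CKD mice and 2.55, 1.78, 1.98, 2.52 and 2.09 FPKM in the Sham mice. The difference was 1.44-fold (log2 0.53, SE 0.12, adjusted p = 0.0231), the groups did not overlap, and the call was lost without CKD 3, CKD 5, Sham 2 or Sham 3 (adjusted p of up to 0.063). Gpnmb, a lysosomal glycoprotein of lipid-laden macrophages, was too low to be tested. Its values were 0.592, 0.291, 0.559, 0.510 and 0.522 FPKM in the CKD mice and 0.452, 0.309, 0.507, 0.374 and 0.288 FPKM in the Sham mice, so the ranges overlapped widely. Both tested lipid-associated genes therefore rose, as did most resident-type genes, and the difference between these roles was not tested.

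A wider list of 16 lipid-associated macrophage genes, of which none is among the 42, had a median log2 difference of 0.10. Spp1, which encodes osteopontin, was at 0.889 ± 0.323 FPKM in CKD and 0.129 ± 0.134 FPKM in Sham (adjusted p = 0.00556) and reached the limit only through the CKD mice. Of the other 15, 1 was higher and 0 were lower, a share near that over all genes. It was Abcg1, a cholesterol exporter (1.80 ± 0.236 and 1.04 ± 0.132 FPKM, adjusted p = 0.00828). Without Spp1 the median was again 0.10. With Spp1 included, 15 of the 16 differences were positive, against 49.2% of all tested genes. An unadjusted p under 0.05 by limma was found for 7 of the 16, against 2415 of the 12585. Because these counts include a gene that passed the limit only through the CKD mice, they are not read as a result. Several genes of that list, among them Lpl and Fabp4, are also expressed by heart muscle or vessels.

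Fcgr1 aside, all 4 Fc receptors and ITAM adaptors were higher in CKD, with a median log2 difference of 0.67, and in all 4 the groups did not overlap. Tyrobp (DAP12), the adaptor of Trem2 and other receptors, had the smallest p of the 42 genes. It was at 37.0, 30.3, 29.2, 30.7 and 39.4 FPKM in CKD 1 to CKD 5 and at 21.6, 20.0, 21.3, 23.3 and 19.4 FPKM in Sham 1 to Sham 5. Means were 33.3 ± 4.58 and 21.1 ± 1.51 FPKM, a 1.56-fold difference (log2 0.64, SE 0.09, adjusted p = 0.00239).

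Fcer1g, the common gamma chain through which Fc receptors signal, was higher by 1.76-fold (log2 0.81, SE 0.14, adjusted p = 0.00665). Its FPKM was 25.5, 17.0, 20.0, 17.8 and 22.5 in CKD 1 to CKD 5 and 11.9, 9.55, 9.27, 15.1 and 11.8 in Sham 1 to Sham 5. CKD 1 was highest here, and Sham 4 stood above the other Sham mice but below every CKD mouse.

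Among the receptors, Fcgr3, a low-affinity activating receptor for IgG, was at 10.8, 11.9, 11.8, 10.3 and 16.2 FPKM in the CKD mice and 8.06, 7.01, 7.83, 8.02 and 9.06 FPKM in the Sham mice (1.48-fold, adjusted p = 0.0132). Fcgr2b, the inhibitory receptor for IgG, was at 7.72, 9.14, 8.99, 9.21 and 14.9 FPKM in the CKD mice and 4.98, 5.24, 6.74, 6.16 and 5.84 FPKM in the Sham mice (1.64-fold, adjusted p = 0.0183). Activating and inhibitory receptors thus rose together, each with CKD 5 on top. Without CKD 5 the log2 difference of Fcgr2b was 0.56 (adjusted p = 0.0124). The 2 genes are close in sequence and lie near each other on chromosome 1 (171051169-171065915 and 170960558-170976071 in GRCm38.p6), and how reads shared between such genes were assigned is not given, so the split between them is uncertain.

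Fcgr1, the high-affinity IgG receptor, was at 1.40, 0.752, 0.874, 0.879 and 1.30 FPKM in the CKD mice and 0.451, 0.573, 0.487, 0.212 and 0.435 FPKM in the Sham mice. Its Sham mean of 0.431 FPKM was below the limit of 0.5, so its call (log2 0.72, adjusted p = 0.021) is left out of the counts for this role. Without CKD 5 the adjusted p was 0.0554.

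Downstream of these adaptors, a separate list of 19 tested genes of ITAM and integrin signalling held 3 that were higher and 0 that were lower, with a median log2 difference of 0.35. Syk, the kinase that binds phosphorylated ITAMs, was at 11.1 ± 0.395 FPKM in CKD and 8.94 ± 0.376 FPKM in Sham (adjusted p = 0.0103). Ncf1, a subunit of the phagocyte NADPH oxidase, was at 4.27 ± 0.686 and 2.54 ± 0.413 FPKM (adjusted p = 0.0103). Plcg2, a phospholipase, was the third (adjusted p = 0.0445).

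Of the 8 phagocytic and pattern-recognition receptors, 3 were higher and 0 lower, and the median log2 difference was 0.33. Cd68, a lysosomal glycoprotein used throughout as a macrophage marker, was at 12.1, 10.3, 11.9, 13.1 and 14.2 FPKM in CKD 1 to CKD 5 and at 9.20, 6.31, 6.44, 8.75 and 7.44 FPKM in Sham 1 to Sham 5. The means of 12.3 ± 1.47 and 7.63 ± 1.31 FPKM differed 1.59-fold (log2 0.67, SE 0.12, adjusted p = 0.00716), with no overlap. Siglec1, a sialic acid-binding receptor of tissue macrophages that type I interferon is known to induce, was at 3.31, 1.94, 1.74, 1.65 and 2.73 FPKM in the CKD mice and 1.10, 0.855, 1.26, 1.28 and 0.913 FPKM in the Sham mice. It was 1.72-fold higher (log2 0.78, SE 0.16, adjusted p = 0.0184), and CKD 1 was the highest mouse.

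CKD 1 also stood out for interferon-responsive genes. For 9 such genes, chosen after their values were seen (Ifit1, Ifit3, Isg15, Irf7, Oas2, Oas1a, Rsad2, Usp18 and Ifi44), the mean log2 deviation from the Sham mean was 1.90 in CKD 1, between 0.33 and 0.79 in CKD 2 to CKD 5, and between -0.13 and 0.18 in Sham mice. The part of this in the results was not tested. Siglec1 without CKD 1 had a log2 difference of 0.66 (adjusted p = 0.0251).

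Msr1, the class A scavenger receptor, was the third receptor that was higher (4.11, 2.50, 2.77, 2.40 and 3.21 FPKM in CKD; 1.48, 1.45, 2.25, 2.07 and 1.56 FPKM in Sham; 1.54-fold, adjusted p = 0.0319). The groups did not overlap, and the call was lost without CKD 3, CKD 5, Sham 1, Sham 2 or Sham 5 (adjusted p of up to 0.0753).

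The receptors that did not pass included those with overlapping groups. Cd14, the co-receptor for lipopolysaccharide, was at 8.09, 11.0, 8.15, 7.72 and 11.2 FPKM in CKD 1 to CKD 5 and at 4.53, 13.3, 8.82, 7.58 and 6.58 FPKM in Sham 1 to Sham 5. Sham 2 had the highest value of all 10 mice and Sham 1 the lowest, and the log2 difference was 0.23 (SE 0.22, adjusted p = 0.636). Mertk, which binds apoptotic cells, was at 2.99, 3.48, 3.06, 3.02 and 4.98 FPKM in the CKD mice and 2.58, 2.57, 3.17, 3.62 and 2.98 FPKM in the Sham mice. Apart from CKD 5 the CKD values lay within the Sham range (log2 0.19, SE 0.13, adjusted p = 0.491). Cd33, an inhibitory sialic acid receptor, had 2.80 ± 1.00 and 2.32 ± 0.530 FPKM (adjusted p = 0.622). Cd84, a self-binding receptor of the SLAM family, had 1.23 ± 0.406 and 0.935 ± 0.145 FPKM (adjusted p = 0.438). Ly86, the partner of the toll-like receptor relative Cd180, came closer to the threshold, with 3.59 ± 0.427 and 2.60 ± 0.546 FPKM (log2 0.41, adjusted p = 0.0792; 0.0274 without Sham 1).

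Other genes of macrophages and monocytes were higher in 4 of 7 cases, with 0 lower and a median log2 difference of 0.58. Itgam, the integrin chain CD11b of monocytes, macrophages and neutrophils, was at 3.70, 4.12, 3.34, 3.62 and 4.29 FPKM in CKD 1 to CKD 5 and at 2.38, 2.31, 2.31, 2.39 and 3.17 FPKM in Sham 1 to Sham 5. It was 1.44-fold higher (log2 0.52, SE 0.10, adjusted p = 0.0108). Except for Sham 5, the Sham mice were nearly equal, and all lay below the CKD mice.

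Ms4a6c, a membrane protein of the monocyte lineage, had the largest log2 difference of the 41 genes, 0.87 (SE 0.21, adjusted p = 0.0378). It was at 10.9, 5.23, 6.49, 5.23 and 10.2 FPKM in CKD 1 to CKD 5 and at 3.86, 2.60, 4.20, 3.59 and 4.80 FPKM in Sham 1 to Sham 5. CKD 1 and CKD 5 lay well above the other CKD mice, and the call was lost without CKD 1 (log2 0.73, adjusted p = 0.0607) or CKD 5 (log2 0.75, adjusted p = 0.086), as well as without CKD 3 or any of Sham 1 to Sham 4. Ms4a7, a relative expressed by macrophages, was at 1.95, 2.81, 2.11, 2.40 and 3.25 FPKM in the CKD mice and 0.753, 1.44, 1.03, 1.81 and 1.84 FPKM in the Sham mice (log2 0.70, SE 0.18, adjusted p = 0.0484), and its call too was lost without any of 7 single mice (adjusted p of up to 0.117). Members of the Ms4a family resemble each other, so reads may have been shared among them.

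Pld4, an endolysosomal enzyme of myeloid cells that trims nucleic acids, was 1.49-fold higher (6.90 ± 1.62 and 4.38 ± 0.363 FPKM, adjusted p = 0.0234), without overlap, and its call was lost without Sham 2, Sham 3 or Sham 4 (adjusted p of up to 0.0637). Lyz2, lysozyme M, was by far the most abundant of the genes, at 164, 162, 165, 162 and 217 FPKM in the CKD mice and 126, 120, 130, 147 and 166 FPKM in the Sham mice. CKD 1 to CKD 4 were almost equal and lay just below Sham 5, and the log2 difference of 0.34 (SE 0.10) missed the threshold (adjusted p = 0.0839; 0.035 without Sham 5). Aif1, which encodes the actin-binding protein IBA1, had 4.13, 1.69, 1.34, 2.49 and 3.67 FPKM in the CKD mice and 1.31, 1.03, 1.37, 1.65 and 1.56 FPKM in the Sham mice, so CKD 3 lay inside the Sham range (log2 0.67, SE 0.23, adjusted p = 0.127). Mpeg1, the pore-forming protein perforin-2, had 4.34 ± 1.20 and 3.15 ± 0.484 FPKM (adjusted p = 0.205).

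Pan-leukocyte genes, which T, B and NK cells and neutrophils share with macrophages, were higher in 3 of 9 cases, with 0 lower and a median log2 difference of 0.52. Lcp1, the actin-bundling protein L-plastin, was at 8.58, 9.69, 7.78, 8.04 and 9.96 FPKM in CKD 1 to CKD 5 and at 5.35, 5.30, 5.60, 7.44 and 5.80 FPKM in Sham 1 to Sham 5. Sham 4 stood above the other Sham mice but below every CKD mouse (1.46-fold, log2 0.55, SE 0.10, adjusted p = 0.0102).

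Coro1a, an actin regulator of blood cells, was at 10.7, 9.95, 7.88, 6.66 and 10.5 FPKM in the CKD mice and 4.63, 7.74, 5.85, 5.58 and 5.70 FPKM in the Sham mice (1.50-fold, adjusted p = 0.0414). Itgb2, the beta chain that pairs with Itgam and other leukocyte integrins, was at 4.79, 4.52, 4.34, 4.14 and 5.33 FPKM in the CKD mice and 2.22, 2.96, 2.53, 3.14 and 4.22 FPKM in the Sham mice (1.48-fold, adjusted p = 0.0322). In both genes 1 Sham mouse overlapped the CKD range, and each call was lost without any of 8 single mice (adjusted p of up to 0.103 and 0.0837).

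Ptprc, which encodes CD45 of all leukocytes, had the smallest log2 difference of the 41 genes (0.15, SE 0.12, adjusted p = 0.538). It was at 2.91, 2.15, 2.42, 2.75 and 3.27 FPKM in CKD 1 to CKD 5 and at 2.11, 2.69, 1.92, 2.80 and 2.37 FPKM in Sham 1 to Sham 5, so the ranges overlapped widely. Cd52, a small surface glycoprotein of lymphocytes and myeloid cells, varied most widely, from 3.32 to 8.90 FPKM in CKD and from 1.42 to 5.77 FPKM in Sham (log2 0.69, SE 0.32, adjusted p = 0.261).

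The remaining pan-leukocyte genes also missed the threshold. Laptm5, a lysosomal protein of blood cells, had 9.32 ± 1.66 and 7.19 ± 0.760 FPKM (adjusted p = 0.101). Hcls1, a cortactin relative of blood cells, had 7.11 ± 1.03 and 4.93 ± 1.41 FPKM (adjusted p = 0.101). Cd53, a tetraspanin (adjusted p = 0.569), and Cd48, an adhesion receptor of the SLAM family (adjusted p = 0.247), did not pass either.

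**Figure D3:**
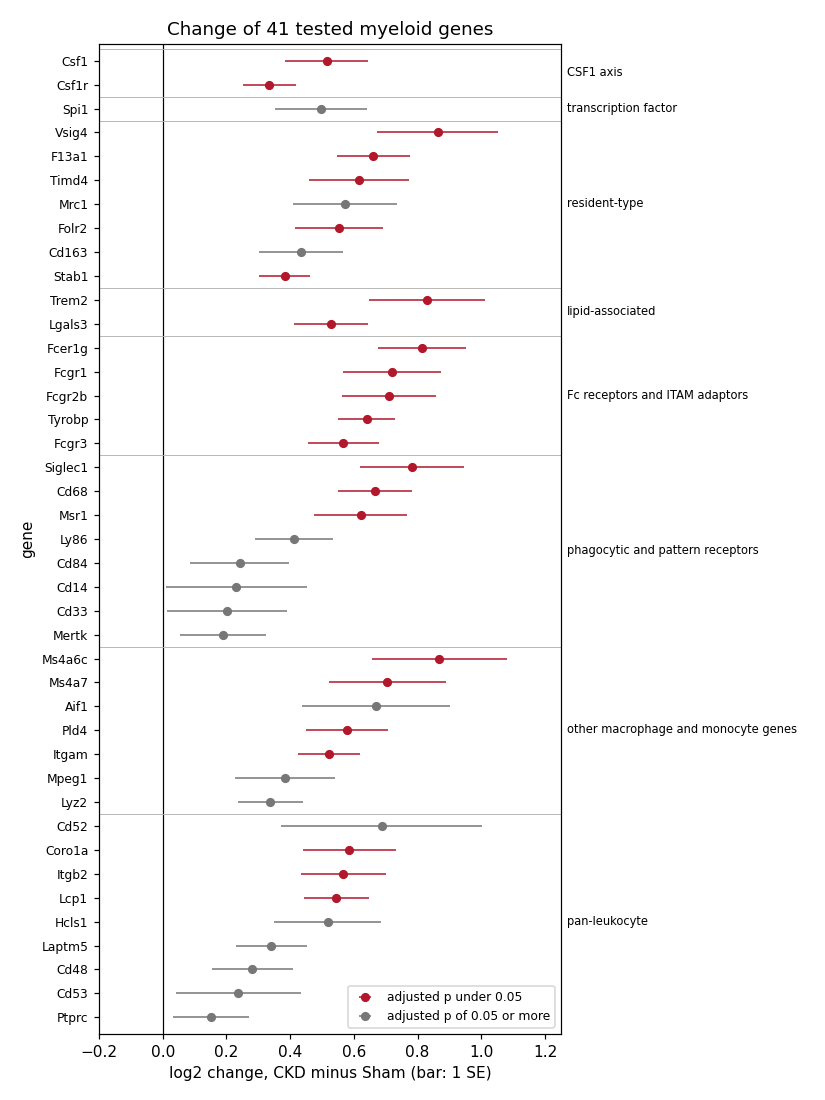
Log2 difference, CKD minus Sham, on the log2(FPKM + 0.5) scale for each of the 41 tested genes (points) with its standard error (bars), grouped by role; red points passed an adjusted p of 0.05 and grey points did not. All 41 points lie to the right of 0, from 0.15 for Ptprc to 0.87 for Ms4a6c.

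Markers of other leukocytes were measured beside the pan-leukocyte genes. None of 7 T cell markers and none of 5 NK cell markers reached a mean of 0.5 FPKM, and the summed FPKM of the 7 lay between 1.39 and 2.20 in CKD and between 1.31 and 4.19 in Sham. For the 5 NK cell markers the sums were 0.524 to 0.975 and 0.550 to 1.89 FPKM. The sums of 5 B cell markers were 1.24 to 2.78 FPKM in CKD and 1.71 to 5.22 FPKM in Sham. By limma 0 of 2 tested B cell markers (1 at an unadjusted p under 0.05), 0 of 2 dendritic cell markers (0 unadjusted), 0 of 2 mast cell markers (0 unadjusted) and 0 of 4 neutrophil markers (1 unadjusted) were called. The 4 neutrophil markers nevertheless all had positive differences, with a median log2 difference of 0.55, beside 0.55 for the macrophage and myeloid genes. In CKD 5, the mouse with the highest neutrophil sum, many macrophage genes were also highest. The part that neutrophil RNA had in the values of genes that neutrophils share, such as Itgam, Itgb2, Coro1a and Lcp1, was not tested. Without CKD 5, limma still called Itgam (adjusted p = 0.0324) and Lcp1 (0.0307), but not Itgb2 (0.0786) or Coro1a (0.0964). In that fit 14 of the 41 genes were called higher, beside 251 of 12577 over all tested genes. The other calls lost without CKD 5 were Csf1r (adjusted p = 0.0696), Folr2 (0.0552), Timd4 (0.07) and Lgals3 (0.0604). Fcgr1 (0.0554), Msr1 (0.0753), Ms4a7 (0.111) and Ms4a6c (0.086) were lost as well.

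To compare the rises with each other, each gene was set against Csf1r in the same library, so that a positive value means a larger rise than that of the receptor. Of the other 40 genes, 10 rose more than Csf1r and 0 less, at an adjusted p under 0.05. The 40 comparisons share the same Csf1r values, so they are not independent of each other. Over all genes, 0.882% were called higher relative to Csf1r and 56.0% lower, since most genes did not move with it. The 10 came from several roles: Vsig4 (log2 0.53 relative to Csf1r) and F13a1 (0.33) of 7 resident-type genes, and Trem2 (0.49) of 2 lipid-associated genes. Fcer1g (0.48), Fcgr2b (0.37) and Tyrobp (0.30) came from 5 Fc receptors and adaptors, among which Fcgr1 was not called here (adjusted p = 0.0708). Siglec1 (0.45), Cd68 (0.33), Ms4a6c (0.53) and Ms4a7 (0.37) were the others, and 0 of 9 pan-leukocyte genes were among them. The median relative to Csf1r was nevertheless 0.18 for those 9, beside 0.24 for the 7 resident-type genes. The difference between these roles was not tested.

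Only Trem2 (adjusted p = 0.0158) and Fcer1g (adjusted p = 0.0153) kept this call under each alternative with Csf1r as the reference. With Cd68 as the reference, 0 genes rose more and 7 of 40 rose less, namely Ptprc (log2 -0.51), Mertk (-0.48), Cd33 (-0.46), Cd53 (-0.43), Cd84 (-0.42), Csf1r (-0.33) and Lyz2 (-0.33). Against that reference 91.5% of all tested genes were called lower and 0.175% higher, so a lower value relative to Cd68 was the common state and nothing is read from the 7. Trem2 (0.16, adjusted p = 0.41) and Fcer1g (0.15, adjusted p = 0.343) did not pass against it.

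**Figure D4:**
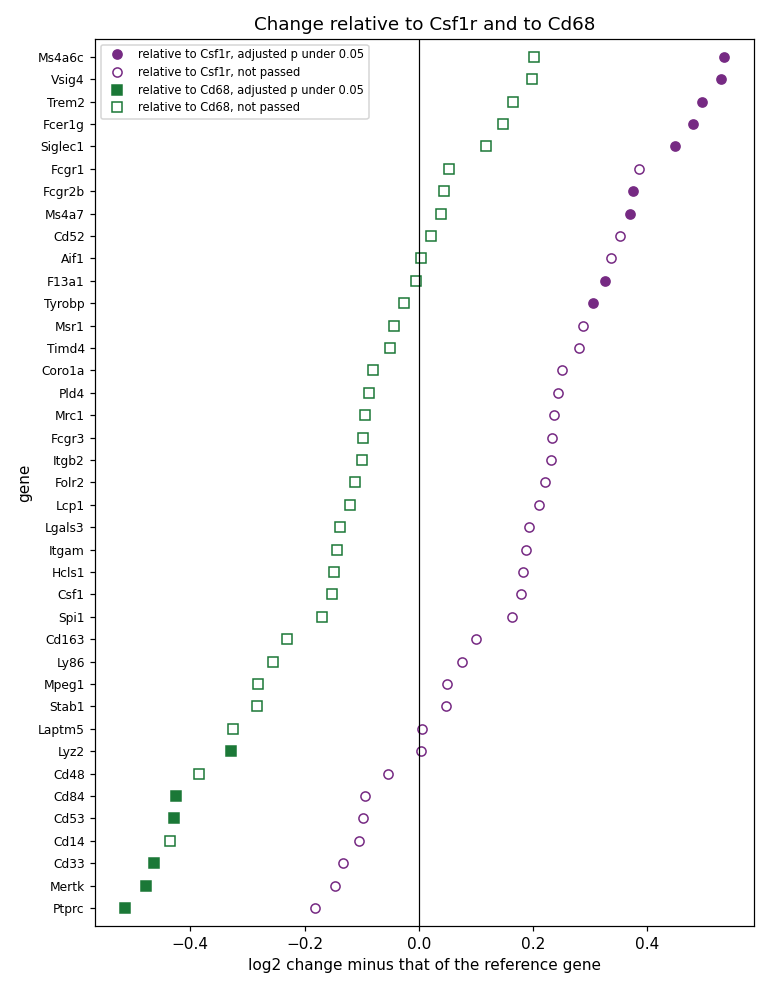
Log2 difference of each gene minus that of Csf1r (circles) or of Cd68 (squares), with genes ordered by the value relative to Csf1r; filled symbols passed an adjusted p of 0.05 and the line at 0 is a rise equal to that of the reference. Csf1r and Cd68 themselves are not drawn; the 9 filled circles run from 0.30 for Tyrobp to 0.53 for Ms4a6c and Vsig4, and the 6 filled squares all lie below 0.

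CKD 5 did not stand above CKD 1 in each role. The mean log2 deviation of the 7 resident-type genes was 0.64, 0.54, 0.37, 0.44 and 0.93 in CKD 1 to CKD 5. For the 5 Fc receptors and adaptors it was 0.76, 0.54, 0.59, 0.54 and 1.02. These 5 include Fcgr1, which reached the limit only through its CKD values, so their height above Sham is not read as a result. The 9 pan-leukocyte genes had 0.63, 0.40, 0.25, 0.27 and 0.62. CKD 5 was thus above CKD 1 for the first groups and level with it for the pan-leukocyte genes. Gene by gene, CKD 5 was the highest CKD mouse in 5 of 7 resident-type genes and CKD 1 in the other 2, whereas CKD 1 was highest in 4 and CKD 5 in 3 of the 9 pan-leukocyte genes. These counts were not tested.

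**Figure D5:**
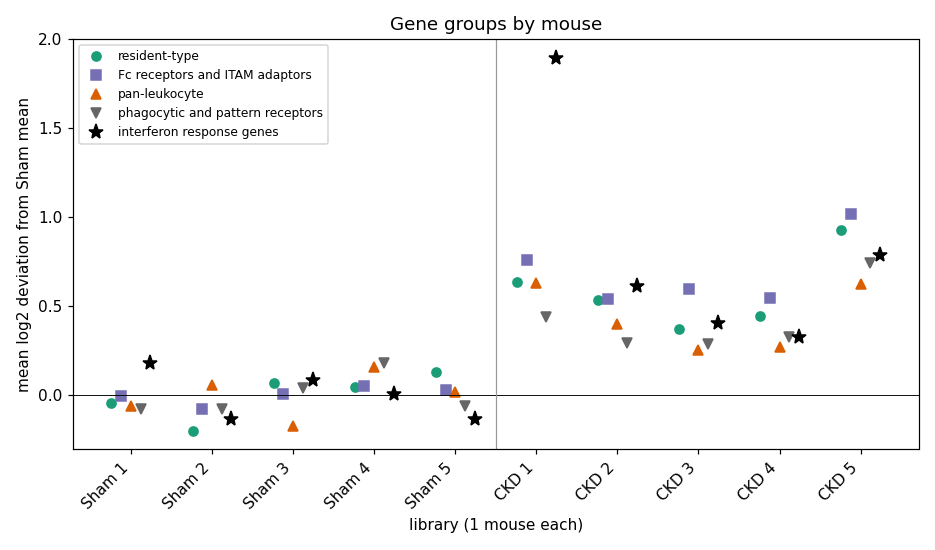
Mean log2 deviation from the Sham mean for each mouse, over the tested genes of 4 roles (Fcgr1 included) and over the 9 interferon-responsive genes (symbols). CKD 5 is highest for the resident-type and Fc receptor genes. CKD 1 and CKD 5 are level for the pan-leukocyte genes (0.63 and 0.62). CKD 1 stands alone for the interferon-responsive genes (1.90), which were chosen after their values were seen.

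Of 18 tested macrophage genes outside the 42, 7 were higher and 0 lower, with a median log2 difference of 0.29. C1qa, C1qb and C1qc, the chains of complement component C1q that macrophages secrete, were at 66.8 ± 9.32, 72.0 ± 13.9 and 61.8 ± 10.8 FPKM in CKD and at 37.5 ± 2.07, 37.6 ± 1.22 and 37.9 ± 4.00 FPKM in Sham (adjusted p = 0.000859, 0.00102 and 0.00536). Lyve1, a hyaluronan receptor of resident macrophages and lymphatic vessels, was at 22.6 ± 2.91 and 11.8 ± 1.32 FPKM (adjusted p = 0.000859). Cbr2, a carbonyl reductase, was at 40.7 ± 8.16 and 24.9 ± 0.972 FPKM (adjusted p = 0.00696).

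Monocyte genes were called higher in 5 of 11 cases and lower in 0, with a median log2 difference of 0.52. Of the 11 differences, 8 were positive and 3 negative, the lowest being -0.14. In 1 of the 11 genes the mean was under 0.5 FPKM in 1 group. Without that gene 5 of 10 were higher and the median was 0.58. Ccr2, the chemokine receptor of recruited monocytes, was at 1.91, 0.904, 1.23, 1.13 and 1.41 FPKM in CKD 1 to CKD 5 and at 0.711, 0.429, 0.416, 0.547 and 0.918 FPKM in Sham 1 to Sham 5 (adjusted p = 0.0305), with Sham 5 just above CKD 2. The others were Ace (24.9 ± 2.02 and 15.7 ± 2.13 FPKM, adjusted p = 0.00239), S100a6 (adjusted p = 0.00376), S100a4 (adjusted p = 0.0103) and Vcan (adjusted p = 0.0121), which endothelium or fibroblasts also express. Of 6 colony-stimulating factor genes and receptors other than Csf1 and Csf1r, 0 were called by limma and 1 had an unadjusted p under 0.05. Among these, Il34, the second ligand of Csf1r, was at 3.47 ± 1.02 FPKM in CKD and 2.70 ± 0.489 FPKM in Sham (adjusted p = 0.406).

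Of 12 myeloid transcription factors other than Spi1, 0 were called by limma and 3 had an unadjusted p under 0.05, with a median log2 difference of 0.05. Leukocyte adhesion genes numbered 10, of which 0 were called and 3 had an unadjusted p under 0.05. Of 6 tested cell division genes, Top2a (1.10 ± 0.365 FPKM in CKD and 0.315 ± 0.132 in Sham, adjusted p = 0.00696), Birc5 (adjusted p = 0.00914) and Mki67 (0.912 ± 0.405 and 0.325 ± 0.0748 FPKM, adjusted p = 0.0423) were called higher but reached the limit only through the CKD mice. Of the other 3, 1 was higher, Rrm2 (1.70 ± 0.241 and 1.03 ± 0.276 FPKM, adjusted p = 0.0414). Which cells divided cannot be told from whole tissue. Fibroblast markers Lum (adjusted p = 0.00925) and Col1a1 (adjusted p = 0.0151) were higher, 2 of 5 tested, whereas the median log2 difference of the 5 was 0.07 and Tcf21 had the lowest (-0.13, adjusted p = 0.56).

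Across 20 alternatives chosen for the test, the differences of all 41 genes stayed positive, and 9 genes were called in every one: Tyrobp, Fcer1g, Cd68, F13a1, Lcp1, Itgam, Fcgr3, Fcgr2b and Siglec1. How many of all tested genes were called in every alternative is not given here. In GRCm38.p6 Tyrobp lies at chr7:30413782-30417582, Fcer1g at chr1:171229572-171234349, Cd68 at chr11:69664213-69666170 and F13a1 at chr13:36867178-37050244. Without both CKD 1 and Sham 1, 13 of the 41 genes were called higher, beside 313 of 12566 over all tested genes. Of the 13, 12 were among the 24 and the other was Ly86 (adjusted p = 0.0419). The calls of Csf1, Csf1r, Folr2, Timd4, Vsig4, Fcgr1, Msr1, Ms4a6c, Ms4a7, Pld4, Coro1a and Itgb2 were lost. The number called higher was between 13 and 22 when single mice were left out.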

How the data were processed

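Left ventricle RNA of 5 CKD and 5 Sham mice was made into TruSeq mRNA libraries and sequenced as single reads, per the labels' protocols. The authors deposited FPKM values in 1 table with 1 column per mouse. Per the submitters' processing notes, the tools were STAR 2.4.0f1, Cufflinks 2.1.1 and Cuffdiff 2.1.1; the notes list the builds mm10 and hg19 without a role. Strand use and the assignment of reads shared between genes are not given in the sources used here. The read number behind each value is unknown. Joined identifiers (272 entries) held more than 1 gene and were not used for the genes named.

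Log2(FPKM + 0.5) was compared between the groups by two-sided limma tests (limma 3.58.1, R 4.3.3; eBayes with its trend option), over all genes with a mean of at least 0.5 FPKM, with Benjamini-Hochberg adjustment over all 12585 and a threshold of 0.05. No further scaling was applied. Fold changes are on that log2 scale and understate those of low genes. The test was checked on simulated data in which each gene varied independently, so shifts of a mouse in many genes were not covered. The relative comparison subtracted the log2 value of Csf1r in the same library. Alternatives were other pseudocounts (0.1 and 1), filters, scalings, variance models and library weights, leaving out mice, and Cd68 as the reference. Every tested gene of the 42 could be named; of each further list, up to 5 tested genes were, called genes first by p and then by mean FPKM. The genes and lists were chosen with earlier results of these data known. Some genes of the further lists are not reported here and were left out of their counts. Gene positions and promoters are from RefSeq.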

Additional observations from a re-analysis of the deposited data

Results flagged for a closer look

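On the log2(FPKM + 0.5) scale, within each group of 5 mice, the gap between the highest or lowest value and its nearest neighbour was compared with the whole range of the group, and a gap above 0.71 of the range was taken as an outlying mouse. Of 82 such groups (41 genes in 2 groups of mice), 9 had one. Chance alone picks about 1 in 20 groups, and the genes are not independent, so part of the list may be chance.

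CKD 5 was the outlying mouse in 6 genes, each time as the highest. It stood at 15.8 FPKM for Cd163 (other CKD mice 9.20 to 9.74), 6.45 for Vsig4 (3.53 to 4.09), 38.9 for F13a1 (24.9 to 27.7), 14.9 for Fcgr2b (7.72 to 9.21), 4.98 for Mertk (2.99 to 3.48) and 217 for Lyz2 (162 to 165). Of these 6, Vsig4, F13a1 and Fcgr2b were called higher in CKD with CKD 5 and also without it.

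Among the Sham mice, Sham 5 was highest for Csf1 at 23.4 FPKM (others 15.0 to 16.8) and for Itgam at 3.17 (others 2.31 to 2.39). Sham 4 was highest for Lcp1 at 7.44 FPKM (others 5.30 to 5.80).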

How the results depend on the processing

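No paired analysis was possible because the labels give the mice no shared numbers across the groups. In the 20 alternatives and in a test without moderation of variances, which was chosen after seeing the data, 0 of the 41 genes were called lower and all differences stayed positive. The number of the 41 called higher (24) became 15 with no filter on the mean, 13 without CKD 1 and Sham 1, 9 without moderation, and 13 to 22 when each mouse was left out in turn. Of the 9 genes called in every alternative, Fcgr2b and Siglec1 were not called without moderation, so 7 were. Over all tested genes, calls of higher (388) ranged from 223 to 408 when 1 mouse was left out. Those of lower (248) ranged from 123 to 296. Calls of higher numbered 355 with no filter on the mean, 313 without CKD 1 and Sham 1, and 249 without moderation. With library weights 395 were lower. Genes that rose more than Csf1r (10) numbered 3 to 9 when 1 mouse was left out. With Cd68 as the reference 0 rose more and 7 less, and F13a1 (log2 -0.0053) and Tyrobp (-0.026) changed sign. The cause was not tested. Read numbers are unknown, so the precision of low genes such as Fcgr1, Gpnmb and Timd4 cannot be stated.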
